A study of Xenopus tropicalis with 84 samples.

Results

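The genes described here make, break down and read retinoic acid in the early frog embryo. They are *aldh1a2*, *rdh10*, *dhrs3*, *cyp26a1*, *rara*, *rarb*, *rarg* and *rxra*, taken from the expression table by their exact symbols, and they are 8 of its 34192 genes. Each symbol stood on 1 line of the table. The levels were not used to choose them.

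The data are a polyA+ RNA-seq time course of whole *Xenopus tropicalis* embryos in 2 conditions, with 21 libraries in each. In the *nup107* MO condition, embryos had received 10 ng of an antisense morpholino oligonucleotide against the start site of the mRNA for Nup107, a scaffold protein of the nuclear pore. Uninjected controls (UIC) were embryos of the same origin with no injection, so the effect of being injected is part of each difference. Both conditions came from *in vitro* fertilizations, were raised at the same temperature and were sampled every 0.5 h between 2 and 12 hours post fertilization (hpf), with 10 embryos pooled per library. All animals were of the Nigerian strain, and no genotype or sex of the embryos was given in the sources used here.

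Retinoic acid is a small molecule made from vitamin A that enters the nucleus and switches genes on through its receptors. In vertebrate embryos it is best known for patterning the trunk, the hindbrain and the boundary with the head, and its level is set by where it is made and where it is destroyed. Rdh10 oxidizes retinol to retinal, and Aldh1a2 (Raldh2) oxidizes retinal to retinoic acid. Dhrs3 reduces retinal back to retinol, which lowers the supply, and Cyp26a1 oxidizes retinoic acid for removal. The receptors Rara, Rarb and Rarg bind retinoic acid and act on DNA as pairs with a retinoid X receptor such as Rxra. *cyp26a1* and *dhrs3* are themselves known to respond to retinoic acid in vertebrate embryos.

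Values are in TPM, each transcript's share of its library, a unit that is scaled for transcript length, so that levels of different genes can be set beside each other. There was 1 library per condition and time point. No single time point has a replicate check, neighbouring time points are not independent, and p-values measure the spread of the differences over time. ERCC spike-ins, RNAs added in equal amount to every extract, took between 4.46% and 6.35% of the TPM, and between 13125 and 15520 genes were over 0.4 TPM in a library. TPM hold no read counts, so the depth is unknown. The table used is the one named for the polyA+ libraries, and a table named for the ribozero libraries of the same series held identical values, so the library type rests on the file labels. At 9 hpf the *nup107* MO and UIC libraries were least alike, with a Spearman correlation of 0.980 over genes, and at the other 20 time points it was between 0.983 and 0.994. The targeted gene, *nup107*, averaged 207.5 ± 11.0 TPM in *nup107* MO and 204 ± 8.26 TPM in UIC at 2 to 5 hpf, and 95.2 ± 25.9 TPM in *nup107* MO and 40.7 ± 13.4 TPM in UIC at 9 to 12 hpf (SD, 7 time points). Because this morpholino blocks translation, the mRNA level does not check the depletion. Markers of mesoderm, organizer, endoderm and ectoderm were near absent or low before 5.5 hpf except *sox3* and *myf5*, and were clearly expressed in both conditions by 9 to 12 hpf, when the 4 mesoderm markers summed to between 481 and 683 TPM in *nup107* MO and between 483 and 698 TPM in UIC. None of these 16 germ layer and organizer markers passed a test between the conditions. Of 3 germ plasm markers, *ddx4* passed (0.09 over 2 to 12 hpf, limma adjusted p = 0.00606, above UIC at 19 of 21 time points). Of 4 tested markers of tissues not yet formed, *hba1* (at most 1.31 TPM in *nup107* MO and 1.33 TPM in UIC) was called by the Gaussian process test described below, with a log likelihood ratio of 3.65. *rho*, at most 0.74 TPM in *nup107* MO and 0.97 TPM in UIC, was lower in *nup107* MO at 9 to 12 hpf (-0.26, limma adjusted p = 0.00106).

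All 4 enzyme genes and *rarg* had transcripts from the first libraries on, at unequal levels, and *rara*, *rarb* and *rxra* were low. In *nup107* MO embryos at 2 to 5 hpf, *cyp26a1* averaged 158 ± 49.5 TPM, *aldh1a2* 136 ± 23.4 TPM, *rdh10* 69.7 ± 14.5 TPM, *dhrs3* 24.1 ± 2.97 TPM and *rarg* 21.3 ± 7.74 TPM (SD, 7 time points). In UIC embryos the same genes averaged 151 ± 38.6, 130.4 ± 17.1, 70.3 ± 9.40, 24.9 ± 3.18 and 22.7 ± 8.00 TPM at these times. *rxra*, *rara* and *rarb* were far lower, at 2.58 ± 0.616, 1.76 ± 0.403 and 0.127 ± 0.0574 TPM in *nup107* MO and 2.15 ± 0.376, 1.88 ± 0.237 and 0.153 ± 0.0263 TPM in UIC. In both conditions the ranges of *cyp26a1* and *aldh1a2*, of *dhrs3* and *rarg*, and of *rxra* and *rara* overlapped. None of these pairs kept the same order in every library of these times.

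By 9 to 12 hpf, the last hours of a series that the paper describes as running to the end of gastrulation, the order was different. *aldh1a2* was highest at 261 ± 30.4 TPM in *nup107* MO and 255.2 ± 36.3 TPM in UIC. *dhrs3* came next at 178 ± 45.4 TPM in *nup107* MO and 163 ± 44.1 TPM in UIC. It was followed by *cyp26a1* (141 ± 45.5 TPM in *nup107* MO, 129 ± 40.2 TPM in UIC), *rdh10* (107 ± 28.4 and 108 ± 24.6 TPM, in the same order) and *rarg* (87.2 ± 20.1 and 70.0 ± 20.5 TPM). *rara* had reached 22.8 ± 9.92 TPM in *nup107* MO and 20.6 ± 10.9 TPM in UIC, and *rxra* and *rarb* remained under 2.1 TPM in every late library. Neighbours in this order from *aldh1a2* to *rarg* had overlapping ranges in both conditions, and in UIC those of *rarg* and *rara* overlapped as well. These ranges pool time points. Within every late library *aldh1a2* was above *dhrs3*, and *rarg* was above *rara*. The ratio of *rarg* to *rara* was 2.71 to 8.05 in *nup107* MO and 2.54 to 6.26 in UIC. Neighbours from *dhrs3* to *rarg* in this order did not keep it in every library.

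**Figure D1:**
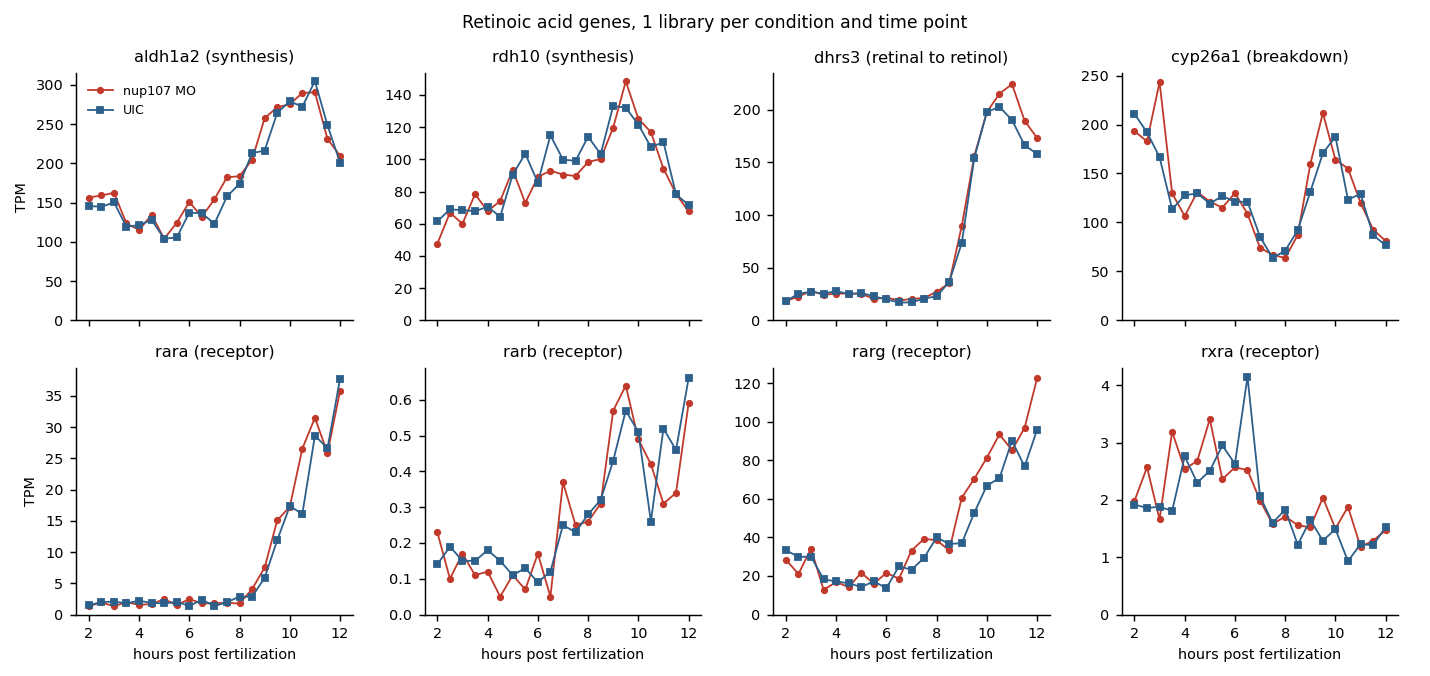
Level of the 8 genes in TPM (vertical axis, a separate scale for each gene) against hours post fertilization, with 1 point per library for *nup107* MO (red circles) and UIC (blue squares). The curves of both conditions lie close together for every gene, with *dhrs3* and *rara* flat until about 8 hpf and *cyp26a1* showing an early and a late high.

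The genes that make retinoic acid differed in timing. *aldh1a2* had a lowest, median and highest level of 104, 162 and 290.5 TPM in *nup107* MO and of 104, 150.4 and 305 TPM in UIC. Its lowest level fell at 5 hpf and its highest at 11 hpf in both conditions, and the ranges overlapped almost entirely. *rdh10*, which acts a step earlier, had 47.6, 89.7 and 148 TPM in *nup107* MO and 61.5, 99.0 and 133 TPM in UIC. It was lowest at 2 hpf in both conditions and highest at 9.5 hpf in *nup107* MO and at 9 hpf in UIC, after which it declined to 67.6 TPM in *nup107* MO and 71.6 TPM in UIC at 12 hpf.

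The genes that oppose retinoic acid had unlike curves. *cyp26a1* had a lowest, median and highest level of 63.6, 121 and 243.5 TPM in *nup107* MO and of 63.7, 123 and 211 TPM in UIC. It started high, at 193.3 TPM in *nup107* MO and 211 TPM in UIC at 2 hpf, was lowest at 8 hpf in *nup107* MO and at 7.5 hpf in UIC, and then peaked again, at 212 TPM at 9.5 hpf in *nup107* MO and at 188 TPM at 10 hpf in UIC. At 12 hpf it was back at 81.1 TPM in *nup107* MO and 76.6 TPM in UIC. *dhrs3* had 18.3, 25.4 and 224 TPM in *nup107* MO and 16.9, 26.0 and 203 TPM in UIC. All of its levels over 37 TPM were in the 7 libraries of each condition from 9 hpf on, so that it switched from a flat, low level to one comparable with *aldh1a2* within about 2 h.

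Among *rara*, *rarb*, *rarg* and *rxra*, *rarg* carried most of the transcripts. A receptor gene outside the members, *rxrb*, described with the lists below, averaged more than *rarg* at 9 to 12 hpf. It had 110 TPM in *nup107* MO and 111 TPM in UIC, where *rarg* had 87.2 and 70.0 TPM. Within the members, the levels of *rarg* were as follows. *rarg* had a lowest, median and highest level of 12.8, 33.3 and 123 TPM in *nup107* MO and of 13.7, 30.1 and 95.8 TPM in UIC, with both maxima at 12 hpf. *rara* had 1.33, 1.98 and 35.8 TPM in *nup107* MO and 1.36, 2.20 and 37.7 TPM in UIC, and it too was highest at 12 hpf in both conditions. *rarb*, a receptor gene that is also a known target of retinoic acid, ranged between 0.05 and 0.64 TPM in *nup107* MO and between 0.09 and 0.66 TPM in UIC, with a median of 0.25 TPM and 0.23 TPM. It never exceeded 0.4 TPM at 6 successive time points in either condition, which was the filter for testing, so it has values and no test. *rxra*, the partner receptor, had 1.18, 1.98 and 3.41 TPM in *nup107* MO and 0.93, 1.83 and 4.15 TPM in UIC. For all of these genes the ranges of the conditions overlapped. Here and elsewhere such ranges pool time points along a developmental change, so their overlap does not show that the conditions were alike. The ranges of *nup107* overlapped as well, although it was above UIC at 18 of 21 time points and below it at 3.

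Change over development was asked in the controls, by setting the 7 UIC libraries of 9 to 12 hpf against the 7 of 2 to 5 hpf. This contrast does not separate maternal transcripts from those made by the embryo. The paper states that polyA+ levels of maternal transcripts also shift with polyadenylation in the early embryo. A change in level here therefore need not be a change in transcript amount. Of the 7 genes that passed the filter, 5 were higher late, 1 was lower and 1 did not pass (limma, Benjamini-Hochberg adjusted p under 0.05). Of all 15011 tested genes, 76.5% passed, 29.5% as higher and 47% as lower. On the log2(TPM + 1) scale *rara* rose by 2.72 ± 0.29 (SE, adjusted p = 6.2e-07), *dhrs3* by 2.61 ± 0.19 (adjusted p = 7.71e-09) and *rarg* by 1.59 ± 0.24 (adjusted p = 1.87e-05). *aldh1a2* rose by 0.96 ± 0.12 and *rdh10* by 0.59 ± 0.15, with adjusted p of 1.93e-06 and 0.00209 by limma. *rxra* was lower late, at -0.43 ± 0.10 (adjusted p = 0.00103), and *cyp26a1*, with a high at each end of the series, had -0.25 ± 0.21 (adjusted p = 0.285). The median over all tested genes was -0.26 in TPM and 0.14 after scaling by median ratios, a shift of 0.40, and relative to the median of its own scaling *rxra* was at -0.17 in TPM and -0.26 with median ratios. Under median ratios *rxra* no longer passed (-0.12, adjusted p = 0.263) and *cyp26a1* turned positive (0.25, adjusted p = 0.243), while the other 5 genes kept their call.

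The comparison of the study is *nup107* MO against UIC, and none of the 7 tested genes passed a test in it over 2 to 12 hpf. In whole embryos, fewer cells with a transcript and less transcript per cell cannot be told apart. The study's test fits a Gaussian process, a smooth curve with noise, to each condition separately and to both together, and calls a gene where the separate curves have the higher likelihood, that is where the log likelihood ratio (LR) is over 0. It called 0 of the 7 genes, against 7.23% of the 15011 tested genes. The LR was -3.73 for *rarg*, -6.18 for *rxra*, -9.76 for *rdh10*, -10.47 for *rara*, -12.71 for *aldh1a2*, -15.86 for *cyp26a1* and -16.18 for *dhrs3*. The median of the 7 genes was -10.5 and that of all tested genes was -6.76. Only 2.38% of tested genes had a lower LR than *cyp26a1* and 1.95% a lower one than *dhrs3*, and for *rarg* the share was 75.5%. *nup107* itself had an LR of 46.1, the highest of all.

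A second test, of the mean of the 21 paired differences in log2(TPM + 1), put an interval on each gene. By limma, 0 of 7 genes passed an adjusted p of 0.05, against 15.1% of all tested genes (10.3% higher and 4.8% lower in *nup107* MO). An unadjusted p under 0.05 was found for 4245 of all 15011 tested genes and for 1 of the 7 genes. That gene was *aldh1a2*, with 0.07 (95% interval 0.02 to 0.13, p = 0.0135, adjusted p = 0.0752), and it was above UIC at 14 of 21 time points. *rdh10* had -0.08 (interval -0.16 to 0.01, adjusted p = 0.217) and was lower at 13 of 21. *rarg* had the largest mean, 0.12 (interval -0.04 to 0.28, adjusted p = 0.318), and was higher at 11 of 21. *rxra* (0.07), *dhrs3* (0.06), *rara* (0.04) and *cyp26a1* (0.03) had adjusted p between 0.219 and 0.763 by limma. Taken as folds of TPM + 1, the intervals of the 7 genes lay between 0.895 and 1.22, so mean differences beyond these bounds are outside the 95% interval of each gene. The median difference was 0.06 for the 7 genes and 0.01 for all tested genes. Of the calls over all genes 68.2% were higher in *nup107* MO, and the share was 98.1% with ERCC scaling and 53.7% with median ratios. Scaling to the ERCC spike-ins moved *aldh1a2* to 0.14 with an adjusted p of 0.0225, and scaling by median ratios moved *rdh10* to -0.10 with an adjusted p of 0.0497. With the 11.5 hpf pair left out, *aldh1a2* had 0.08 and an adjusted p of 0.0463.

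The genes differed in how tightly the conditions followed each other. The SD of the 21 paired differences was 0.12 for *aldh1a2* and 0.13 for *dhrs3*, smaller than for the typical gene (median 0.20), and 14.4% and 21.9% of tested genes had a smaller SD. It was 0.37 for *rarg* and 0.31 for *rara*, where 86.8% and 80.4% of genes had a smaller one. At 9 hpf 5 of the 7 genes (*rarg*, *rara*, *dhrs3*, *cyp26a1* and *aldh1a2*) were higher in *nup107* MO by 0.25 to 0.70, which is the time point at which the paired libraries were least alike.

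**Figure D2:**
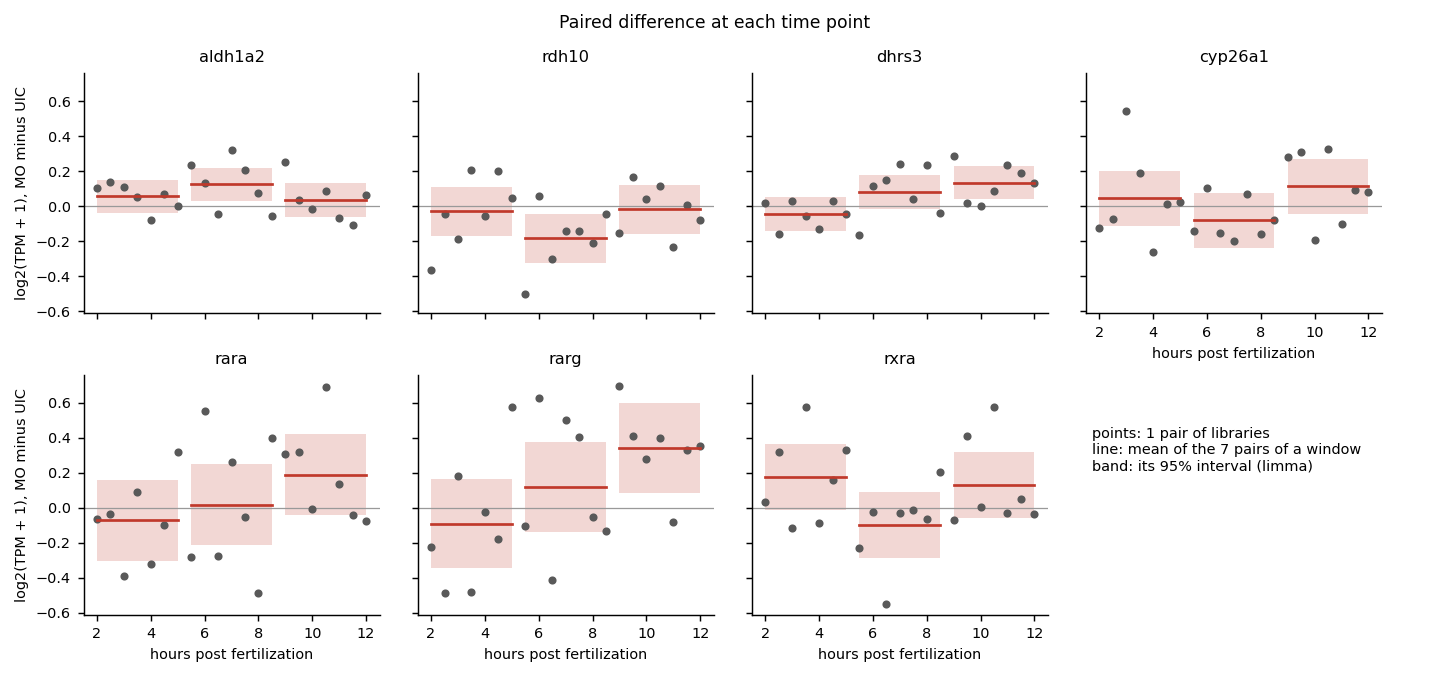
Difference in log2(TPM + 1), *nup107* MO minus UIC, at each of the 21 time points (grey points, 1 pair of libraries each) for the 7 tested genes, with the mean of each window of 7 time points (red line) and its 95% interval by limma (band). Points of every gene lie on both sides of 0, and the bands of *rarg* and *dhrs3* at 9 to 12 hpf and of *rdh10* and *aldh1a2* at 5.5 to 8.5 hpf do not reach 0 before adjustment for the number of genes.

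To ask when a difference might arise, the 21 differences were averaged over 3 windows of 7 time points. The share of all tested genes with an unadjusted p under 0.05 was not counted by window or for the late minus early change. Counts of members with such a p therefore have no background beside them there. At 2 to 5 hpf, before and around the start of transcription by the embryo, 0 of 7 genes passed and 0 had an unadjusted p under 0.05 by limma, where 7.05% of all tested genes passed. *rxra* had the largest difference, 0.17 (interval -0.02 to 0.36, adjusted p = 0.283), at levels near 2 TPM.

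At 5.5 to 8.5 hpf, 0 of 7 genes passed and 2 had an unadjusted p under 0.05 by limma, where 0.306% of all tested genes passed. *rdh10* had 72.9, 90.6 and 100.2 TPM as lowest, median and highest level in *nup107* MO and 85.5, 103 and 115 TPM in UIC. It was below UIC at 6 of 7 time points, with overlapping ranges and a difference of -0.18 (interval -0.32 to -0.04, p = 0.0123, adjusted p = 0.194). *aldh1a2*, which takes the product of Rdh10 further, had 124, 154 and 204.6 TPM in *nup107* MO and 106, 137 and 213 TPM in UIC. It was above UIC at 5 of 7 time points, again with overlapping ranges, by 0.12 (interval 0.03 to 0.22, p = 0.0134, adjusted p = 0.202).

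At 9 to 12 hpf, 0 of 7 genes passed and 2 had an unadjusted p under 0.05 by limma, where 9.97% of all tested genes passed. *rarg* had 60.6, 85.2 and 123 TPM as lowest, median and highest level in *nup107* MO and 37.0, 70.7 and 95.8 TPM in UIC. It was above UIC at 6 of 7 time points, all but 11 hpf, by 0.34 on the log2 scale (interval 0.09 to 0.60, p = 0.0114, adjusted p = 0.0807). *dhrs3* had 89.7, 189.7 and 224 TPM in *nup107* MO and 73.4, 166 and 203 TPM in UIC. It was also higher at 6 of 7 time points, by 0.13 (interval 0.04 to 0.23, p = 0.00788, adjusted p = 0.0648). The ranges of both genes overlapped. *rara* (0.19), *rxra* (0.13), *cyp26a1* (0.11), *aldh1a2* (0.04) and *rdh10* (-0.02) had adjusted p between 0.314 and 0.896. The median of the 7 genes was 0.13 and that of all tested genes 0.02.

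The late differences sat close to the threshold, and some settings moved them across it. Each *nup107* MO library was also set against UIC values interpolated at the developmental time it resembled most. The match used tested genes other than the members, the markers and the gene lists described below. With these values *rarg* passed at 9 to 12 hpf (0.31 ± 0.10, SE, limma adjusted p = 0.0441). The difference was smaller than without matching (0.34 ± 0.12), and so was the SE. Most interpolated values average 2 neighbouring UIC libraries. *dhrs3* passed with a pseudocount of 5 TPM (0.13, adjusted p = 0.0348) or without the 5.5 hpf pair (adjusted p = 0.0422). The 5.5 hpf pair is outside this window, so leaving it out changed the estimated spread and not the difference. Without the 9 hpf pair the differences were 0.28 for *rarg* (adjusted p = 0.206) and 0.11 for *dhrs3* (adjusted p = 0.179). The matched times were ahead of the true time at 14 of 21 time points and behind at 5, with a median shift of 0.15 h and a range of -0.15 to 0.40 h. UIC libraries matched in the same way to the UIC curve had shifts of -0.2 to 0.1 h. That curve was fitted to these same UIC libraries, so their range is no baseline for the shifts of *nup107* MO.

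Whether the difference itself changed with time was tested as the mean at 9 to 12 hpf minus that at 2 to 5 hpf. By limma, 0 of 7 genes passed and 2 had an unadjusted p under 0.05, where 3.09% of all tested genes passed. These were *dhrs3*, with 0.18 (interval 0.04 to 0.31, adjusted p = 0.142), and *rarg*, with 0.43 (interval 0.07 to 0.79, adjusted p = 0.190). For both genes the early mean was below 0, at -0.04 for *dhrs3* and -0.09 for *rarg*. The other 5 genes had changes between -0.04 and 0.26 and adjusted p between 0.427 and 0.98.

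**Figure D3:**
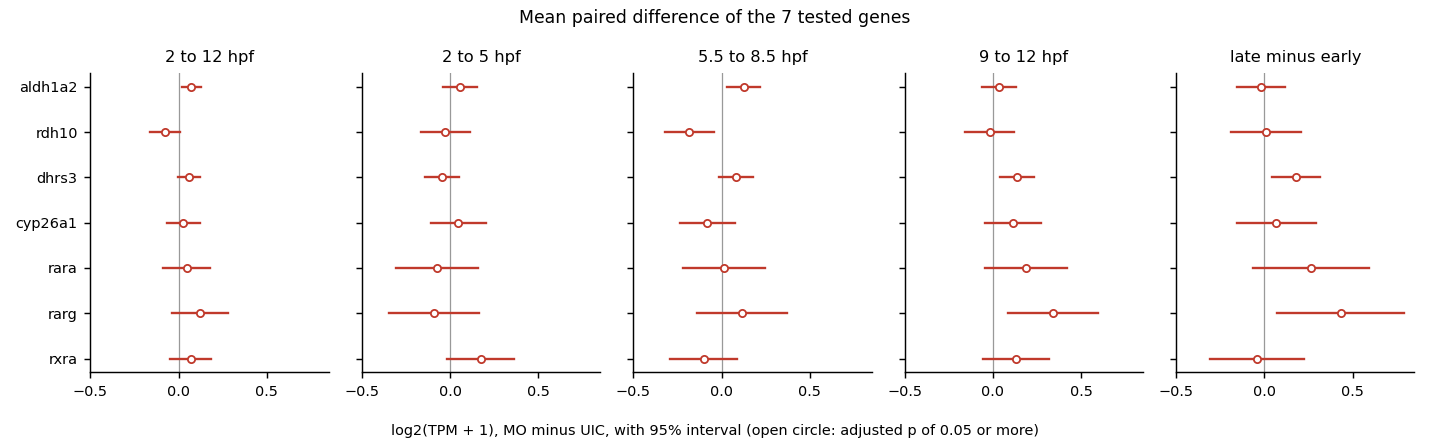
Mean paired difference in log2(TPM + 1), *nup107* MO minus UIC, with its 95% interval for the 7 tested genes, over all 21 time points, in each window and as the late minus the early window. All circles are open because no gene had an adjusted p under 0.05, and the intervals farthest from 0 are those of *rarg* at 9 to 12 hpf and late minus early.

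Levels were also compared as the time at which a gene first crossed the midpoint between its mean over 2 to 8 hpf and its maximum, by linear interpolation between libraries. The mean and the maximum were taken over both conditions together, so the conditions shared 1 level per gene. This was a description of the 4 genes with a late rise, with no test. *rarg* crossed 73.3 TPM at 9.63 hpf in *nup107* MO and at 10.6 hpf in UIC, 0.93 h earlier in *nup107* MO. Its shared level rests on the maximum of *nup107* MO, 123 TPM, where the maximum of UIC was 95.8 TPM. This gap therefore does not separate an earlier rise from a higher level. *rara* crossed 19.8 TPM at 10.1 hpf in *nup107* MO and at 10.6 hpf in UIC, and *aldh1a2* crossed 222 TPM at 8.67 hpf in *nup107* MO and at 9.06 hpf in UIC. *dhrs3* crossed 124 TPM at 9.25 hpf in *nup107* MO and 9.31 hpf in UIC, a gap of 0.06 h. With samples 0.5 h apart, the gaps for *dhrs3* and *aldh1a2* were below the sampling step, and that for *rara*, 0.51 h, was about equal to it. At 10 hpf *rara* had 17.2 TPM in *nup107* MO and 17.3 TPM in UIC, and in UIC it then dipped to 16.1 TPM at 10.5 hpf. Each crossing rests on the single libraries on either side of it.

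Ratios within a library do not depend on its scaling. The ratio of *cyp26a1* to *aldh1a2*, a breakdown and a synthesis gene, was 1.14 ± 0.191 in *nup107* MO and 1.15 ± 0.178 in UIC at 2 to 5 hpf (SD, 7 time points). It compares mRNA levels, and no enzyme activity or retinoic acid was measured in these libraries. At 5.5 to 8.5 hpf this ratio averaged 0.605 ± 0.255 in *nup107* MO and 0.702 ± 0.308 in UIC, and it was lower in *nup107* MO at all 7 time points. At 9 to 12 hpf it was 0.533 ± 0.145 in *nup107* MO and 0.505 ± 0.133 in UIC, and higher in *nup107* MO at 5 of 7. The ratio of *dhrs3* to *rdh10*, enzymes that run the same step in opposite directions, was 0.354 ± 0.0613 in *nup107* MO and 0.357 ± 0.0464 in UIC early. It was 0.258 ± 0.0495 in *nup107* MO and 0.218 ± 0.0658 in UIC at 5.5 to 8.5 hpf, above UIC at 7 of 7 time points, and 1.80 ± 0.708 in *nup107* MO and 1.61 ± 0.581 in UIC at 9 to 12 hpf, higher at 4 of 7. These ratios were formed after the single genes had been seen and were not tested.

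The receptor transcripts summed to 110.5 ± 29.2 TPM for *rara*, *rarb* and *rarg* in *nup107* MO and 91.1 ± 31.2 TPM in UIC at 9 to 12 hpf. The sum was higher in *nup107* MO at 6 of 7 of these time points. *rarg* made up 91.0 ± 3.37% of it in *nup107* MO and 91.0 ± 2.91% in UIC at 2 to 5 hpf, and 79.8 ± 4.86% in *nup107* MO and 78.2 ± 4.82% in UIC at 9 to 12 hpf, when *rara* was rising in both conditions.

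**Figure D4:**
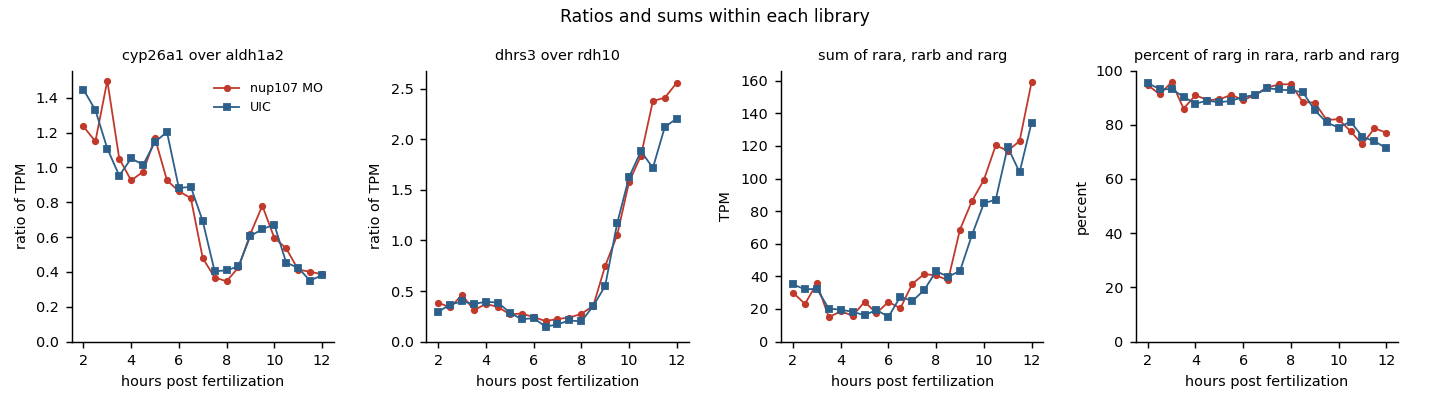
Ratios of TPM (*cyp26a1* over *aldh1a2*, *dhrs3* over *rdh10*), the summed TPM of *rara*, *rarb* and *rarg*, and the percent of that sum from *rarg*, against hours post fertilization, with 1 point per library for *nup107* MO (red circles) and UIC (blue squares). The *cyp26a1* to *aldh1a2* ratio declined to under 0.5 at 7.5 to 8.5 hpf in both conditions, and the *dhrs3* to *rdh10* ratio climbed past 2 by 12 hpf in both.

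Across the 42 libraries the members fell into a group that rose together and others that did not. *dhrs3* and *rara* were the closest pair, with a Pearson correlation of 0.97 in log2(TPM + 1), and *rarg* correlated with *rara* at 0.90, with *aldh1a2* at 0.89 and with *dhrs3* at 0.87. *rxra* ran against them, at -0.78 with *aldh1a2* and -0.76 with *rarg*. *cyp26a1* correlated with no other member beyond 0.13 in either direction. These values describe shared timing over the same 21 time points in both conditions, and libraries next to each other in time are not independent.

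Among 10193 other genes with at least 5 TPM on average, the closest profile to *dhrs3* was that of *ripply2.2* (r = 0.987 over 42 libraries), followed by *ripply2.1* (0.982). Both encode transcriptional repressors that act in somite formation. The closest to *rara* was *mmp3* (0.991), a matrix protease gene, and the closest to *rarg* was *xnf7* (0.971). *aldh1a2* was closest to *plpp2* (0.967), *rxra* to *ptpn4* (0.935) and *rdh10* to *zswim4* (0.928). *cyp26a1* had no gene as near, and its closest was *qtrt1* at 0.755.

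The rest of the pathway was described with 3 lists of genes. The first holds retinoid carriers and other retinoid enzymes, 33 names of which 30 were in the table and 20 were tested. The Gaussian process test called 0 of them, and limma over 2 to 12 hpf called 1 lower and 0 higher, with a median of -0.01. Over all tested genes the Gaussian process test called 7.23%, and limma called 10.3% higher and 4.8% lower. With ERCC scaling the list had 0 lower and 2 higher, and with median ratios 2 lower and 0 higher. The gene called in TPM was *adh5*, an alcohol dehydrogenase that acts mainly on formaldehyde adducts, with 12.9, 129 and 175 TPM as lowest, median and highest level in *nup107* MO and 16.7, 129 and 190.1 TPM in UIC. Its ranges overlapped, and it was below UIC at 18 of 21 time points, by -0.15 ± 0.04 (SE, limma adjusted p = 0.0071). The call was lost with ERCC scaling (-0.08, adjusted p = 0.238). *crabp2*, a retinoic acid carrier, *lrat*, which stores retinol as esters, and *cyp26c1*, a further breakdown enzyme, are in this list and did not pass.

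The second list holds partners of the receptors, corepressors and coactivators, 32 names of which 31 were in the table, on 33 lines because *med1* and *pparg* each stand on more than 1. Of 27 lines tested, the Gaussian process test called 0, and limma called 2 lower and 0 higher, with a median of 0.00, beside the same shares over all tested genes as for the first list. With ERCC scaling 0 were lower and 2 higher, and with median ratios 3 were lower and 0 higher. Of those called in TPM, *hdac3*, a histone deacetylase of the corepressor complex, had 18.2, 45.5 and 111 TPM in *nup107* MO and 20.6, 52.7 and 119 TPM in UIC, and a difference of -0.13 ± 0.03 (adjusted p = 0.00201). *cited2*, which binds the coactivators Ep300 and Crebbp, had 71.2, 1108 and 1588 TPM in *nup107* MO and 68.1, 1256 and 1617 TPM in UIC, and a difference of -0.12 ± 0.03 (adjusted p = 0.0074). Both genes overlapped between the conditions, were lower at 18 and 16 of 21 time points and lost their call with ERCC scaling (adjusted p of 0.19 and 0.36). The other retinoid X receptors, picked out after their values were seen, were more abundant than *rxra*. *rxrb* averaged 110 ± 11.7 TPM in *nup107* MO and 111 ± 9.24 TPM in UIC at 9 to 12 hpf, and *rxrg* 9.12 ± 4.29 TPM in *nup107* MO and 9.14 ± 4.68 TPM in UIC. Neither passed a test between the conditions.

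The third list holds genes known to respond to retinoic acid in vertebrate embryos, 35 names of which 32 were in the table by exact symbol and 21 were tested. The name *ripply2* was not found, and *ripply2.1* and *ripply2.2*, named above as nearest profiles to *dhrs3*, were not counted in its place. In UIC embryos 18 of the 21 were higher at 9 to 12 hpf than at 2 to 5 hpf and 1 was lower, where 29.5% of all tested genes were higher and 47% lower. Between the conditions the Gaussian process test called 0 of them. Over 2 to 12 hpf limma called 2 higher and 0 lower, where 10.3% of all tested genes were called higher, and 19 of the 21 differences were above 0, where 8298 of 15011 were. The median of the list was 0.08 and that of all tested genes 0.01. With ERCC scaling limma called 6 of the list higher, with median ratios it called 0, and 0 were lower in both. With ERCC scaling the medians were 0.12 for the list and 0.06 for all tested genes, and with median ratios 0.06 and -0.01.

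Of the genes called, *meis3* is a homeobox gene of the hindbrain. It had 5.44, 23.1 and 177 TPM in *nup107* MO and 5.25, 19.7 and 167 TPM in UIC, with overlapping ranges, and was above UIC at 16 of 21 time points, by 0.09 ± 0.03 (limma adjusted p = 0.0228). It did not pass with median ratios (adjusted p = 0.0611) or with stage-matched UIC values (0.03, adjusted p = 0.455), and it passed in 26 of the 31 settings tried. Chosen after the values were seen, calls by window over the 3 lists included *stra6*, a retinol transporter, at 2 to 5 hpf (0.37, adjusted p = 0.0188), and *adh5* (-0.28, adjusted p = 0.00138), *cited2* (-0.16, adjusted p = 0.0448), *ncoa2* (0.19, adjusted p = 0.0492) and *cdx1* (0.20, adjusted p = 0.033) at 9 to 12 hpf. These calls depended on the setting, with *ncoa2* called in 10 of 28 settings, *cited2* in 13, *cdx1* in 21, *stra6* in 23 and *adh5* in 27. With ERCC scaling *adh5* had an adjusted p of 0.106, *cited2* of 0.463 and *ncoa2* of 0.067. With stage-matched UIC values *cdx1* had an adjusted p of 0.226 and *stra6* of 0.0501.

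**Figure D5:**
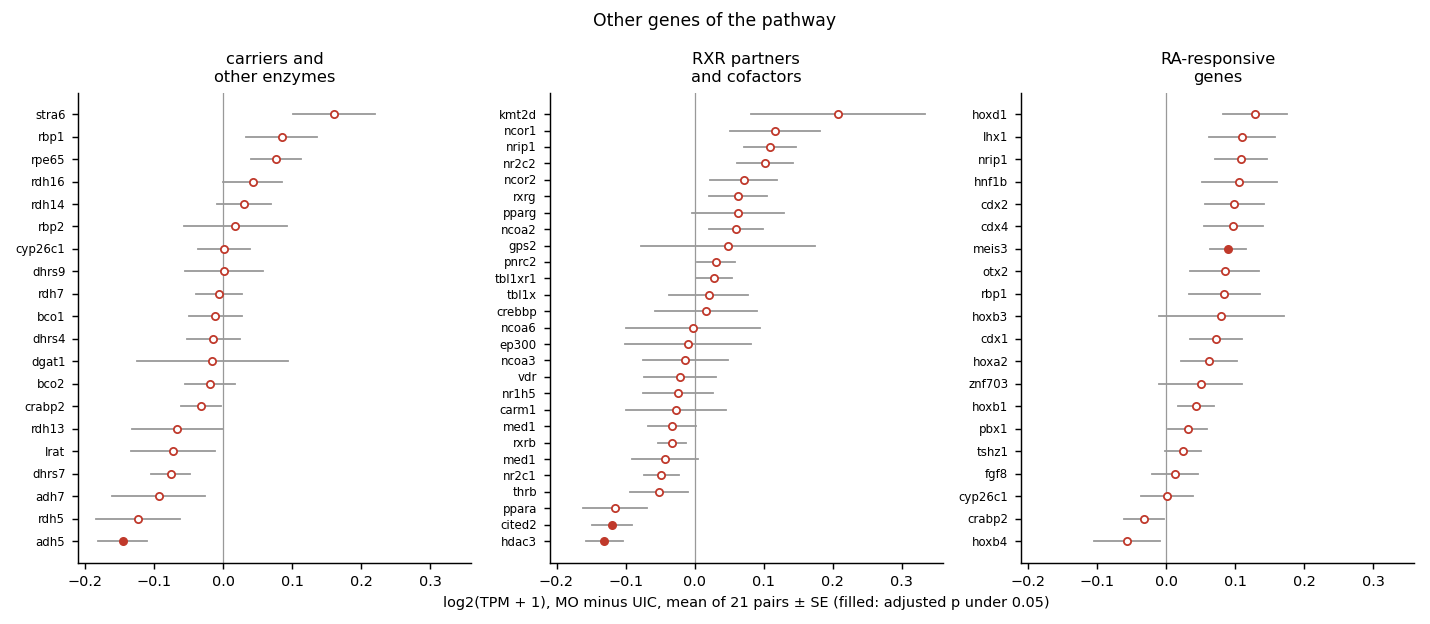
Mean difference in log2(TPM + 1) over 21 time points, *nup107* MO minus UIC, ± SE, for tested genes of the 3 lists (carriers and other enzymes, receptor partners and cofactors, genes known to respond to retinoic acid), with filled circles for an adjusted p under 0.05 by limma. All means lie between -0.15 and 0.21, and *adh5*, *hdac3*, *cited2* and *meis3* are filled.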

How the data were processed

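PolyA+ RNA-seq libraries were used, 42 in number, grouped by the treatment and time in the sample labels. According to their methods and processing notes, the authors used STAR for alignment (genome Xt9.1 plus the ERCC sequences) and RSEM for quantification. The deposited values are TPM for each gene, with the spike-ins inside the total and without the sequence bias correction that their own test used. A table named for the 42 ribozero libraries holds the same values, and those libraries were not analysed here. TPM leave counting error unknown. The labels start at 2 hpf.

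Members, lists and tests were chosen with earlier results of these data known. Named genes are the 8 members, *nup107*, list genes past a threshold over 2 to 12 hpf, and the nearest profiles, with exceptions said where they occur. A called gene of the list of genes that respond to retinoic acid is counted and not reported here. Genes over 0.4 TPM at 6 successive time points in either condition were tested (15011). Gaussian processes followed the study's methods: square root after scaling to a maximum of 1000 plus 1, a Matern kernel and normal priors on log hyperparameters (means 3, 2 and 0, SDs 2, 4 and 4). limma used log2(TPM + 1), paired by time point, with Benjamini-Hochberg adjustment over all tested genes. Development in UIC was tested unpaired.

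On simulated data with 100 genes changed by a log2 of 0.5 at all times, the Gaussian process called 97 and limma 97, and 154 and 9 of 14811 unchanged genes. The simulated noise was independent between time points, so these rates need not hold in the real series. They also do not cover smaller differences or, for these rates, differences within 1 window. Alternatives covered pseudocount, filter, scaling (ERCC or median ratios), likelihood threshold, priors, centring, pairing, stage matching and left-out time points. Software was limma 3.58.1 in R 4.3.3, and Python 3.11.15 (numba 0.67.0, numpy 2.4.6, scipy 1.17.1, pandas 2.3.3, matplotlib 3.10.9). Gene symbols are those of the table, and 8 of 8 member symbols are also in RefSeq. No genome of the build used was read, so no sequence or position is given.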

Additional observations from a re-analysis of the deposited data

Results flagged for a closer look

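Among the members and *nup107*, the targeted gene, the difference of *nup107* alone passed the test of its change between time windows, which 3.09% of all tested genes passed. Its difference at 9 to 12 hpf exceeded that at 2 to 5 hpf by 1.20 ± 0.13 on the log2(TPM + 1) scale (SE, limma adjusted p = 0.000174). At 9 to 12 hpf it had 62.4, 89.9 and 136 TPM as lowest, median and highest level in *nup107* MO and 27.1, 34.4 and 65.4 TPM in UIC, and it was above UIC at 7 of 7 time points. The cause was not tested. Of the 24 sets of 7 paired differences of the members, by gene and window, none had a time point far enough from the rest to stand apart by Dixon's criterion, where chance alone marks about 1 set in 20.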

How the results depend on the processing

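With all 21 time points, another scaling, pseudocount, filter or pairing kept the members at 0 or 1 called in each comparison between the conditions. Over 2 to 12 hpf 1 member passed with ERCC scaling, 1 with median ratios and 0 to 1 with a time point left out (1 without 11.5 hpf), and at 9 to 12 hpf 1 passed with a pseudocount of 5 TPM, 1 with stage-matched UIC and 0 to 1 with a time point left out (1 without 5.5 hpf). Of 315 values of members under the other settings, 299 kept direction and side of the threshold, and 873 of 889 did with a time point left out. Many of the 889 could not change direction, because leaving out a time point outside a window does not move the mean of that window. The 315 include changes of filter and likelihood threshold for the Gaussian process test, which are described next. Neither count therefore measures how stable the values were. The 0 calls of the Gaussian process test held in all 8 alternatives, but not all of these could have changed them. A stricter likelihood threshold could not, because the highest LR of the 7 tested members was already below 0, at -3.73. A change of filter could not either, because the curves are fitted to each gene alone. These alternatives are therefore no check of the calls. Over all settings the highest LR of a tested member was -1.88, for *rarg*. Without the replicate block, that is with a shared curve over time in place of pairing by time point, 1940 genes passed over 2 to 12 hpf (2261 with pairing) and 0 members did.

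Some differences changed sign, most of them close to 0. Over 2 to 12 hpf these were *cyp26a1* (-0.00029) and *rxra* (-0.0088) at whole hours, *rarg* at the time points between them (-0.026) and *rara* with stage-matched UIC (-0.010). At 2 to 5 hpf they were *cyp26a1* (-0.00012) and *nup107* (-0.025) with median ratios and *dhrs3* (0.017) and *rdh10* (0.035) with ERCC scaling. Later they were *rara* at 5.5 to 8.5 hpf with stage-matched UIC (-0.044), *rdh10* at 9 to 12 hpf with ERCC scaling (0.056), *aldh1a2* late minus early with median ratios (0.0036) and *cyp26a1* over UIC development with median ratios (0.25). With 1 time point left out, ranges spanned 0 for *cyp26a1* (-0.038 to 0.096) and *rdh10* (-0.068 to 0.027) at 2 to 5 hpf, *rara* (-0.073 to 0.10) at 5.5 to 8.5 hpf, *aldh1a2* (-0.00053 to 0.059) and *rdh10* (-0.049 to 0.017) at 9 to 12 hpf, and *aldh1a2* (-0.057 to 0.0026), *rdh10* (-0.046 to 0.049) and *rxra* (-0.12 to 0.023) late minus early. None of these values passed a threshold.

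Counts over all genes moved more. The Gaussian process test called 1086 genes, against 573 at an LR over 3, 355 with the log priors added, 5970 with no filter and 2598 with the gene mean subtracted. The run with no filter tested a larger set, and its further calls are all of genes that fail the filter. Over 2 to 12 hpf 9 genes passed at whole hours and 475 at the time points between them. Both sets have fewer pairs than the whole series, and the whole hours, with the lower count, are the larger set. At 2 to 5 hpf 1058 genes passed, against 609 with median ratios and 407 to 1380 with a time point left out (lowest without 2.5 hpf). At 5.5 to 8.5 hpf 46 passed, against 26 with ERCC scaling, 30 with median ratios, 30 and 148 with pseudocounts of 0.1 and 5 TPM, 384 with stage-matched UIC and 22 to 376 with a time point left out (highest without 9 hpf). At 9 to 12 hpf 1496 passed, against 737 with ERCC scaling and 889 to 1581 with a time point left out (lowest without 10.5 hpf), and late minus early 464 passed, against 40 with ERCC scaling and 226 to 640 with a time point left out (lowest without 2.5 hpf). The causes were not tested. With 1 library per condition and time point and no read counts, sampling noise of *rara*, *rarb* and *rxra*, none of them over 4.15 TPM before 9 hpf, cannot be separated from change over time.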
